A study of Argiope bruennichi with 12 samples.

Results

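The transfer RNA (tRNA) genes of the spider Argiope bruennichi that received reads in overwintering spiderlings are described here, singly and summed by the anticodon written in their names. They were taken as the rows of the count table whose name begins with Trna and whose raw counts summed to at least 20 over the 12 samples. This rule kept 144 of 16866 tRNA rows, in a table of 37459 rows. These rows were chosen by their summed counts, so their abundance is a description. The comparisons between winter regimes were not used in the choice, but a low row can reach the minimum sum through a single regime. Differences between regimes in kept rows are therefore not fully separate from the choice. A row name holds the one-letter code of the amino acid, the anticodon and a running number, so that Trnai-uau_36 is one of the isoleucine tRNA genes with anticodon UAU. The sum over the kept rows of that name is written Ile-UAU.

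A tRNA carries an amino acid to the ribosome and reads a codon of the messenger RNA with the 3 bases of its anticodon. Animal genomes hold many copies of most tRNA genes, often in clusters, and RNA polymerase III transcribes them into precursors that are trimmed at both ends, spliced where an intron is present, and chemically modified. Mature tRNAs are short, tightly folded and rich in modified bases, so libraries made for messenger RNA capture them poorly, and reads on a tRNA row can come from a mature tRNA, a precursor or another transcript that runs through the locus.

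The samples were 12 pools of 15 spiderlings, 4 pools for each of 3 winter regimes of 3 months. Spiderlings of the warm regime had 15 °C by day and -5 °C by night, those of the cold regime 5 °C by day and -15 °C by night, and those of the moderate regime 5 °C by day and -5 °C by night. The moderate regime served as the reference for the warm and the cold regime, and the warm regime was also set against the cold one. All spiderlings came from mothers of 1 Estonian population. Each regime was held in 1 climate cabinet, the cold one of another model than the others, so regime and cabinet cannot be told apart. Neither the labels nor the methods say which egg sacs the RNA pools came from, and p-values therefore measure only the spread between these pools.

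The libraries were depleted of ribosomal RNA and held 10800714 to 16081111 counts each. Levels are given as CPM, the count scaled to the size of the library. Small nucleolar RNA rows together had 463 to 566 CPM in warm pools, 297 to 380 in cold pools and 295 to 486 in moderate pools. Small nuclear RNA rows had 8970 to 9909 CPM in warm pools, 5448 to 7411 in cold pools and 5807 to 9253 in moderate pools.

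Few tRNA rows received reads. The tRNA rows made up 45.0% of the table. Whether each of these annotated loci is a functional tRNA gene was not tested. Of the 16866 tRNA rows, 14478 (85.8%) had no count in any pool and 2388 had at least 1 count. The 144 rows that were kept held 8053 of the 14700 tRNA counts (54.8%), or 49.0 CPM over the whole table. Their sums ran from 20 to 289 with a median of 38.5, and 19 of them reached 100. A single value was therefore small: the median count of a kept row in a pool was 3, 222 of the 1728 values were 0, and 59 rows had a count in every pool. Such counts were not corrected for gene length, and they allow only large differences between regimes to be detected in single rows.

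At the threshold itself 7 rows had a sum of exactly 20 and 9 rows a sum of 19. Just inside, Trnam-cau had 5, 2, 3 and 3 counts in warm pools, 2, 0, 1 and 0 in cold pools and 1, 0, 3 and 0 in moderate pools. Just outside, Trnal-uaa_449 had 6, 5, 3 and 1 counts in warm pools, 0, 2, 1 and 0 in cold pools and 1, 0, 0 and 0 in moderate pools. Both of these rows had most of their counts in warm pools. Other rows near the threshold had most of theirs elsewhere. Trnai-uau_190, just inside, had 11 of 20 counts in cold pool 2. Trnai-uau_153, just outside, had 7 and 8 of 19 counts in moderate pools 3 and 4.

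The kept rows covered 36 of the 61 anticodon names in the table and 18 of 20 amino acids. No row for cysteine or asparagine reached a sum of 20. A single name, Ile-UAU, held 63 of the 144 rows and 4177 counts, 51.9% of all counts on kept rows. The next largest sums were Thr-UGU with 464 counts on 3 rows, Phe-GAA with 420 on 8 rows, Tyr-GUA with 380 on 5 rows and Ser-CGA with 230 on 5 rows. Of the isoleucine tRNAs with the other anticodon, AAU, 4 rows with 172 counts were kept. Stop-UCA, named for a stop codon, carries the anticodon known from selenocysteine tRNA in animals and had 78 counts on 2 rows. The number of rows in the table did not set this order, because 10 names had 487 rows each, among them Phe-GAA and Tyr-GUA, and Ile-UAU had 458.

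**Figure D1:**
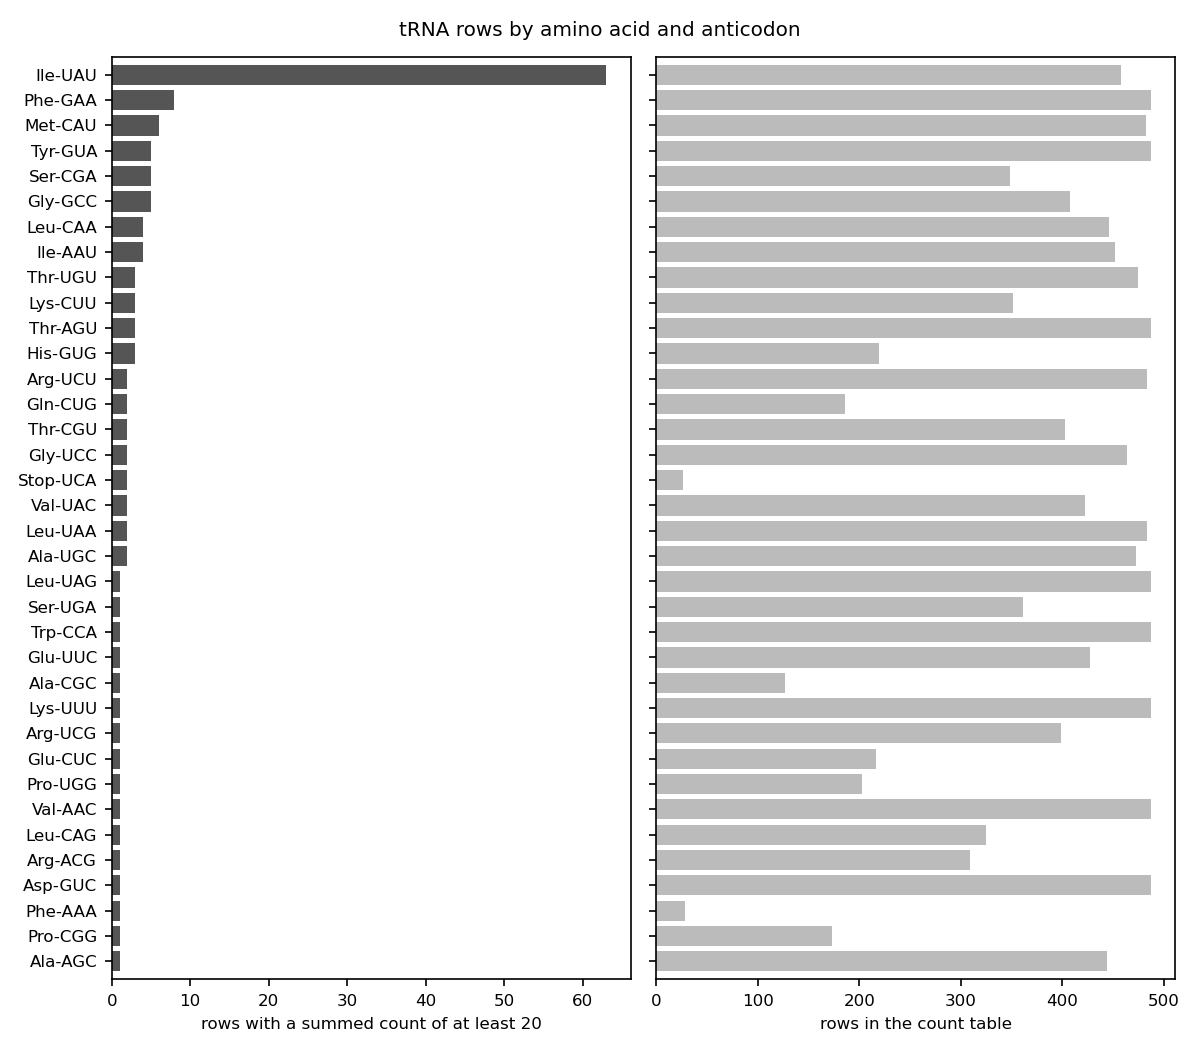
Number of tRNA rows with a summed count of at least 20 (left) and number of rows in the count table (right) for the 36 anticodon names that had such rows. Ile-UAU had 63 of the 144 kept rows but only 458 rows in the table, fewer than the 487 of Phe-GAA.

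For all 61 names the number of rows in the table equaled the number of loci of that name in the RefSeq annotation of the assembly qqArgBrue1.1. RefSeq gives its loci no running number, so a single row could not be placed at a locus, and positions are given per name only. Of the 458 Ile-UAU loci, 425 lay on chromosome 6 in a pair of arrays. The first array held 225 loci at chr6:133174648-133255643 and overlapped no other annotated gene. The second held 200 loci at chr6:125197723-125289077, within the span of the protein-coding gene LOC129971349 (chr6:125182858-125318088). In all, 43.9% of Ile-UAU loci overlapped another gene, compared to 8.19% of all tRNA loci. Ile-UAU loci had a median length of 92 bases, compared to 73 over all tRNA loci. Other names were also clustered. Met-CAU had 436 of 482 loci at chr8:126372274-126677702, Arg-UCU 466 loci at chr5:104343857-104536326, Val-UAC 407 loci at chr10:22690587-22899067 and Thr-AGU 463 loci at chr1:133686395-133910200.

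The reads were unevenly spread over the running numbers of a name. Apart from Ile-UAU, 46 of 81 kept rows (56.8%) stood among the first or last 10 numbers of their name, whereas 6.28% of all such tRNA rows did. The 1030 rows near an end held 40.5% of the counts on tRNA rows other than Ile-UAU. All 8 kept rows of Phe-GAA, such as Trnaf-gaa_477 and Trnaf-gaa_481 among 487 rows, and all 6 kept rows of Met-CAU, such as Trnam-cau_1 and Trnam-cau_473 among 482 rows, were of this kind. Ile-UAU differed, since only 1 of its 63 kept rows (1.59%) stood near an end. Its kept rows were numbered 8 to 213, with 26 of them among the 53 numbers from 8 to 60 and 35 among the 66 numbers from 148 to 213. The 244 Ile-UAU rows numbered above 213 held 145 counts, compared to 4667 on those up to 213. Whether the running number follows position in the genome was not tested.

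Summed over the 144 rows, tRNA levels overlapped between all regimes. After scaling by trimmed mean of M-values (TMM), the sums were 49.9, 42.2, 46.9 and 35.2 CPM in warm pools, 44.0, 62.2, 45.7 and 46.0 CPM in cold pools, and 34.8, 69.8, 56.8 and 62.1 CPM in moderate pools. Means were 43.5 ± 6.41 CPM in warm pools, 49.5 ± 8.50 in cold pools and 55.9 ± 15.0 in moderate pools (SD, n = 4 each). The moderate regime thus held both the lowest and the highest pool. Without Ile-UAU the regimes were close together, at 24.4 ± 4.29 CPM in warm pools, 23.1 ± 2.90 in cold pools and 23.3 ± 3.53 in moderate pools (SD, n = 4 each). No test was run on these totals. In pools of whole spiderlings, fewer cells of a type and less RNA per cell cannot be told apart.

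The tRNA rows below a sum of 20 had another order. Together they reached 72.0, 37.2, 47.5 and 33.1 CPM in warm pools, 26.9, 29.3, 25.8 and 32.5 CPM in cold pools, and 27.8, 42.4, 62.0 and 49.1 CPM in moderate pools. Every warm pool was above every cold pool, by a narrow margin between warm pool 4 and cold pool 4.

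**Figure D2:**
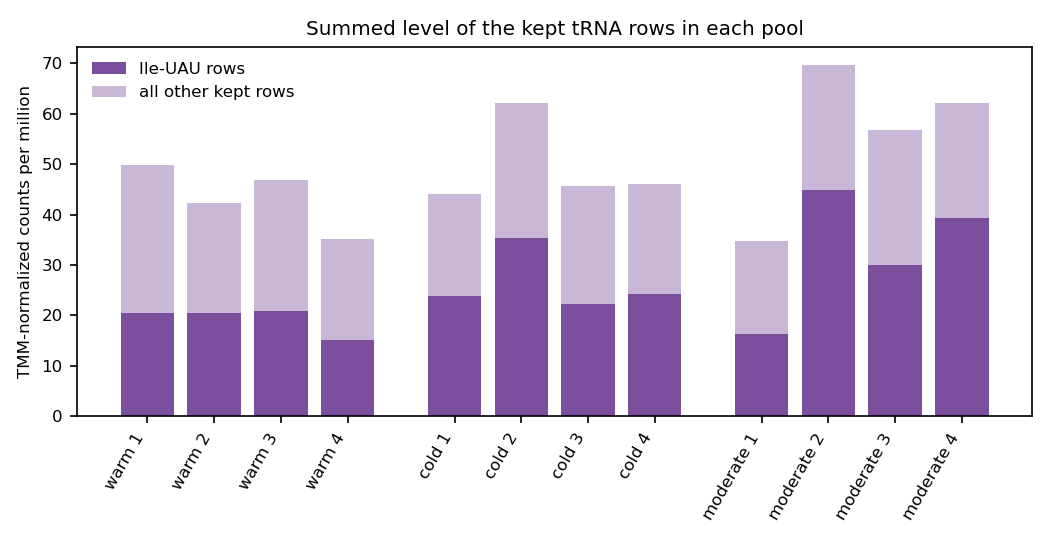
Summed TMM-normalized CPM of the 144 kept tRNA rows in each of the 12 pools, split into the 63 Ile-UAU rows (dark) and all other kept rows (light). Ile-UAU ran from 15.1 CPM in warm pool 4 to 44.8 CPM in moderate pool 2, whereas the other rows stayed between 18.6 and 29.5 CPM.

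No single tRNA row that passed the filter on low counts was called between regimes in edgeR. Only 24 of the 144 rows passed that filter, and in the quasi-likelihood test of edgeR, with p-values adjusted by Benjamini-Hochberg over all 14057 rows tested, 0 of these 24 passed an adjusted p of 0.05 in the warm against the moderate regime, where 4.08% of all rows tested did. The count was also 0 of 24 in the cold against the moderate regime, where 0.0142% of all rows passed, and 0 of 24 in the warm against the cold regime, where 5.47% passed. An unadjusted p under 0.05 was reached by 2 of the 24 rows in each comparison, beside 29.6, 12.0 and 25.4% of all rows tested in the same order. DESeq2 called 0 of the 24 rows in every comparison, against a background of 15.7, 1.32 and 12.2%. limma with voom called 1 row, Trnar-ucu_477 in the warm against the moderate regime, and 0 in the others, against a background of 36.3, 5.72 and 26.5%. The median log2 fold change of the 24 rows was -0.67 in the warm against the moderate regime, -0.09 in the cold against the moderate regime and -0.37 in the warm against the cold regime, beside -0.0035, -0.0099 and -0.0093 over all rows tested. Since 17 of the 24 rows were Ile-UAU rows, these medians largely describe that name.

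Pools of different regimes rarely separated in single rows. Of all 144 rows, 9 had no overlap between warm and moderate pools (6 higher and 3 lower in warm pools), compared to 9.75% of all table rows with a sum of at least 20 (4.92% higher and 4.84% lower). Between cold and moderate pools 5 rows did not overlap (2 higher and 3 lower in cold pools, background 5.28%, with 3.11% higher and 2.17% lower), and between warm and cold pools 16 rows did not (6 higher and 10 lower in warm pools, background 23.9%, with 11.5% higher and 12.4% lower).

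Ile-UAU had the most counts of all sums in every pool. It had 304, 292, 288 and 221 raw counts in warm pools, 394, 491, 292 and 336 in cold pools, and 232, 437, 412 and 478 in moderate pools. In CPM this was 20.4, 20.5, 20.8 and 15.1 in warm pools, 23.9, 35.2, 22.3 and 24.2 in cold pools, and 16.2, 44.8, 30.0 and 39.3 in moderate pools. Warm pools were low and alike, apart from warm pool 4, and 3 of 4 moderate pools were above every warm pool. Moderate pool 1 lay among the warm pools. The log2 difference was -0.76 (SE 0.26) in the warm against the moderate regime, with an adjusted p of 0.0794 in edgeR, -0.30 (SE 0.26, adjusted p = 0.675) in the cold against the moderate regime and -0.46 (SE 0.26, adjusted p = 0.279) in the warm against the cold regime. The share of kept tRNA counts that fell on Ile-UAU was 40.9 to 48.5% in warm pools, 48.8 to 56.7% in cold pools and 46.6 to 64.2% in moderate pools.

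LOC129971349, the gene whose span holds the second Ile-UAU array, did not have the same order of regimes. It averaged 114 ± 21.3 CPM in warm pools, 181 ± 28.1 in cold pools and 130 ± 9.91 in moderate pools (SD, n = 4 each). Its log2 difference was -0.67 (SE 0.14, adjusted p = 0.0247 in edgeR) in the warm against the cold regime and 0.48 (SE 0.14, adjusted p = 0.247) in the cold against the moderate regime, so its mean was highest in cold pools, whereas Ile-UAU had its highest mean in moderate pools. The warm against cold difference of LOC129971349 stayed between -0.80 and -0.58 without single pools, but did not pass without any one of warm pools 1 to 3 or cold pools 1 to 3, with adjusted p up to 0.0802. The part of transcripts of this gene in the Ile-UAU counts was not tested.

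The Ile-UAU rows did not follow a common profile over the pools. Trnai-uau_36 had 24, 24, 16 and 20 counts in warm pools, 5, 30, 20 and 47 in cold pools, and 7, 60, 6 and 24 in moderate pools. Trnai-uau_202 had 6, 6, 18 and 4 counts in warm pools, 8, 35, 18 and 8 in cold pools, and 9, 5, 25 and 11 in moderate pools. In moderate pool 2 the first of these rows was highest, at 6.15 CPM, while the second had 0.512 CPM. The second ran from 0.274 to 2.51 CPM over the pools, and in moderate pool 3 it had 25 counts while the first had 6. Trnai-uau_179 had 3, 2, 4 and 2 counts in warm pools, 62, 11, 1 and 1 in cold pools, and 17, 2, 7 and 27 in moderate pools. Cold pool 1 thus held 62 of its 139 counts, and its log2 difference of -2.61 (SE 1.07, adjusted p = 0.148) in the warm against the cold regime was -0.70 without that pool. Trnai-uau_180 had the same high pools, with 0, 0, 2 and 0 counts in warm pools, 28, 6, 1 and 2 in cold pools, and 11, 0, 2 and 16 in moderate pools. Trnai-uau_191 and Trnai-uau_55 were also highest in cold pool 1, with 23 and 17 counts.

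Which pool was highest differed between sets of Ile-UAU rows. Moderate pool 2 was highest for 17 of the 63 rows (27.0%, compared to 10.9% of other table rows in the same range of sums), cold pool 2 for 12, moderate pool 4 for 11, moderate pool 3 for 7 and warm pool 2 for 5. By regime, 9 rows (14.3%) were highest in a warm pool, 19 (30.2%) in a cold pool and 35 (55.6%) in a moderate pool, compared to 39.97, 26.2 and 33.9% of the other table rows. The 17 rows highest in moderate pool 2 together had 284 counts there and 53 to 163 in the other pools. The 12 rows highest in cold pool 2 had 190 counts there and 36 to 123 elsewhere. These sets were formed from the values themselves and were not tested.

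The spread between pools of a regime was larger for Ile-UAU rows than counting alone would give. It was measured as chi-square per degree of freedom around the mean of the regime, which is 1 when pools differ by counting error only. The median was 2.78 over the 63 Ile-UAU rows, 1.56 over the other 81 kept rows and 1.70 over 3538 other table rows in the same range of sums. The ratio exceeded 2 in 66.7% of Ile-UAU rows, in 29.6% of the other kept rows and in 39.8% of the other table rows. Among the other names the largest ratio was that of Trnaq-cug_4, a glutamine tRNA gene with 6, 4, 10 and 1 counts in warm pools, 3, 69, 3 and 4 in cold pools, and 2, 1, 3 and 3 in moderate pools. Cold pool 2 alone held 69 of its 109 counts, and without that pool the row was as low in the cold regime as in the others.

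**Figure D3:**
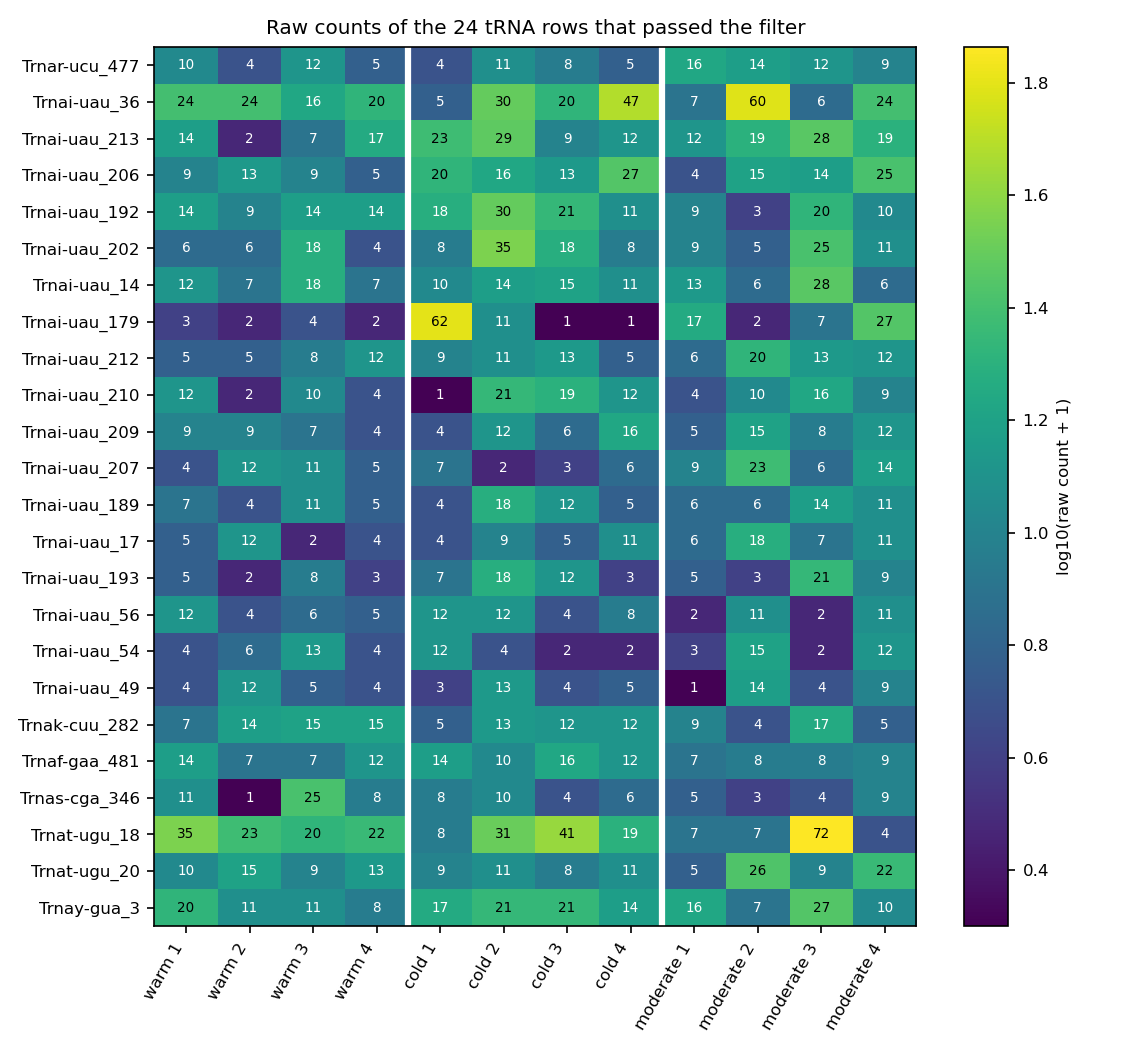
Raw counts of the 24 tRNA rows that passed the low-count filter (one row each) in the 12 pools (columns), with the color giving log10 of the count plus 1. Single pools stood out within regimes, such as cold pool 1 for Trnai-uau_179 with 62 counts and moderate pool 3 for Trnat-ugu_18 with 72 counts.

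Among the anticodon sums, the methionine tRNAs alone passed the test in edgeR, in the warm against the cold regime. Methionine tRNAs with anticodon CAU include both the initiator, which starts every protein, and the elongator, and the row names do not separate them. Met-CAU, summed over 6 rows, had 39, 21, 24 and 22 counts in warm pools, 18, 4, 10 and 9 in cold pools, and 9, 5, 12 and 9 in moderate pools. In CPM this was 2.61, 1.47, 1.73 and 1.51 in warm pools, 1.09, 0.287, 0.765 and 0.649 in cold pools, and 0.629, 0.512, 0.874 and 0.740 in moderate pools. In these 6 rows all 4 warm pools were above all cold and all moderate pools. Some of the rows, such as Trnam-cau_1 and Trnam-cau_4, reached the minimum sum only with their warm counts. The choice of rows was therefore not separate from this comparison. Over all 482 Met-CAU rows of the table, moderate pool 3 had 3.13 CPM, above warm pools 2 to 4 at 2.24 to 2.74 CPM. Met-CAU was upregulated in the warm against the cold regime, with a log2 fold change of 1.37 (SE 0.36) and an adjusted p of 0.0450 in edgeR's quasi-likelihood test. It was 1 of 14 sums tested that passed in this comparison, where 5.47% of all features tested passed. In the warm against the moderate regime the log2 difference was 1.39 (SE 0.37) with an adjusted p of 0.0516, and in the cold against the moderate regime it was 0.02 (SE 0.40, adjusted p = 0.991), with a sign that changed between alternatives. With all Met-CAU rows summed, the warm against moderate difference was 0.64 (SE 0.34, adjusted p = 0.226 in edgeR).

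The Met-CAU call lay close to the threshold. Without single pools the log2 fold change stayed between 1.11 and 1.68, but the adjusted p ran from 0.0263 to 0.123 and passed only without moderate pool 2 or moderate pool 4. It did not pass without Trnam-cau_1, the row with the most counts (log2 difference 1.20, adjusted p = 0.0697), an alternative chosen after seeing the data. The 6 rows were low singly. Trnam-cau_1 had 12, 4, 6 and 6 counts in warm pools, 2, 1, 2 and 2 in cold pools, and 1, 0, 4 and 3 in moderate pools. Trnam-cau_4 had 10, 5, 5 and 2 counts in warm pools, 4, 0, 3 and 0 in cold pools, and 1, 0, 1 and 0 in moderate pools. Trnam-cau_5 did not show the difference, with 0, 2, 3 and 3 counts in warm pools, 3, 0, 0 and 3 in cold pools, and 2, 1, 2 and 2 in moderate pools. Small nucleolar RNA levels also had no overlap between warm and cold pools, and their part in this result was not tested.

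**Figure D4:**
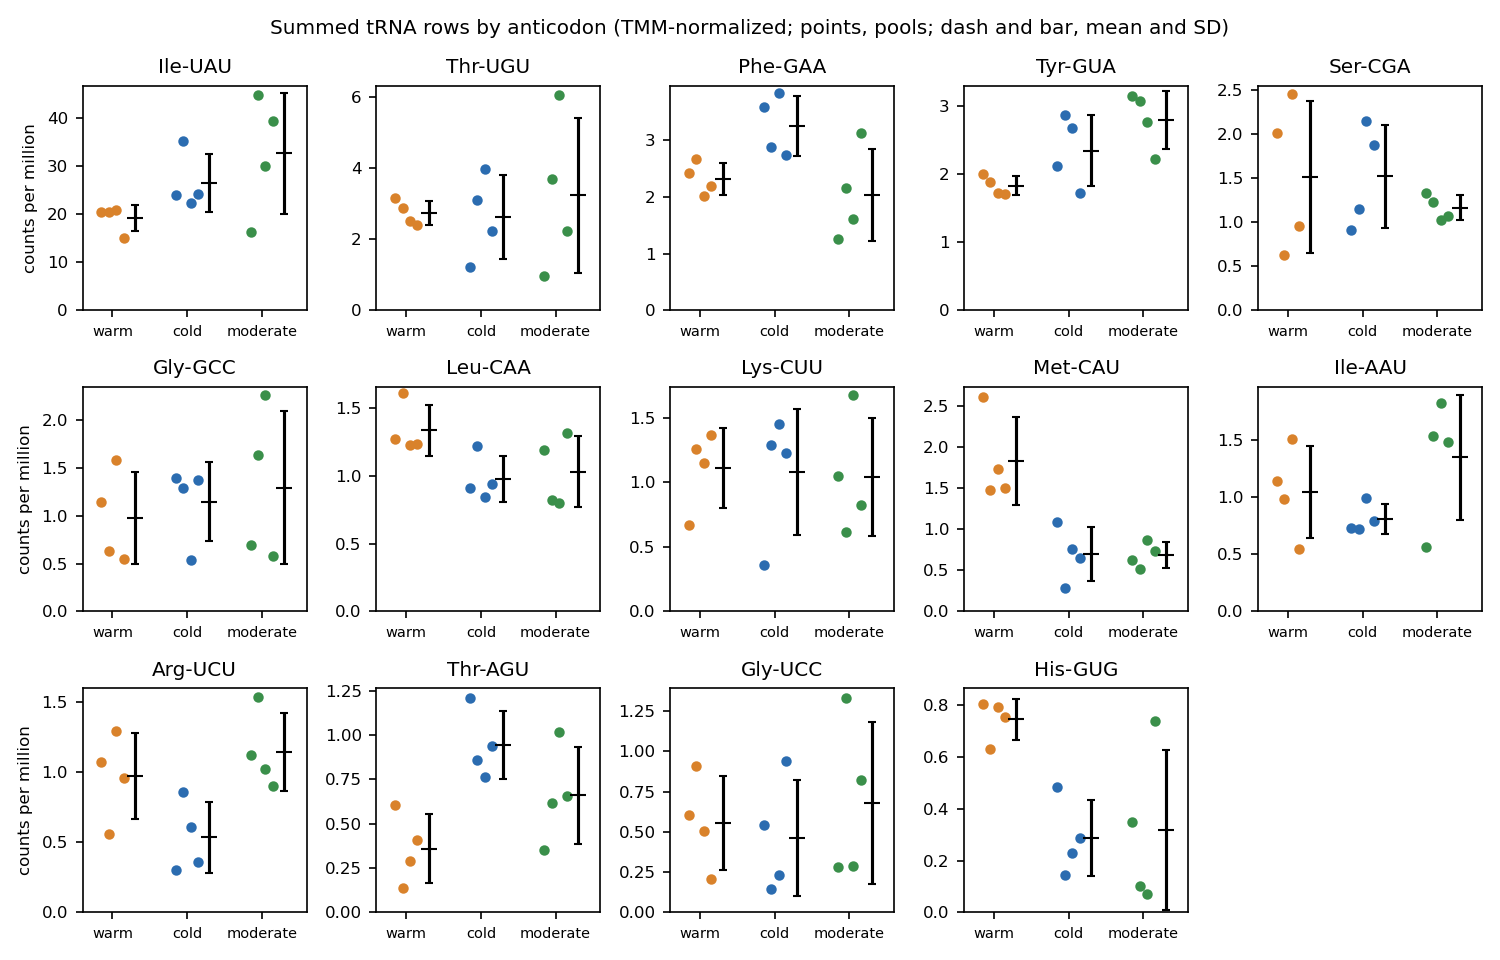
TMM-normalized CPM of the 14 anticodon sums that passed the low-count filter, with one point per pool and the mean and SD of each regime (n = 4) beside the points; each panel has its own vertical axis starting at 0. For Met-CAU the warm pools lie between 1.47 and 2.61 CPM, above all cold and moderate pools.

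The other 13 sums did not pass an adjusted p of 0.05 in any comparison. In the warm against the moderate regime 0 of 14 sums passed (4.08% of all features did), 4 had an unadjusted p under 0.05 (29.6% of all features did), DESeq2 called 2 (background 15.8%) and limma with voom called 4 (background 36.4%). In the cold against the moderate regime 0 of 14 passed (0.0142% of all features did), 2 had an unadjusted p under 0.05 (12.0% of all features did), DESeq2 called 0 (background 1.32%) and limma with voom called 1 (background 5.74%). In the warm against the cold regime DESeq2 also called 1 sum (background 12.2%) and limma with voom called 3 (background 26.6%). The median log2 difference of the 14 sums was -0.22 in the warm against the moderate regime, -0.14 in the cold against the moderate regime and 0.06 in the warm against the cold regime.

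His-GUG (histidine), Val-UAC (valine) and Stop-UCA (selenocysteine-type) had their highest means in warm pools. His-GUG had 12, 9, 11 and 11 counts in warm pools, 8, 2, 3 and 4 in cold pools, and 5, 1, 1 and 9 in moderate pools. Warm pools were above all cold pools but overlapped with moderate ones in CPM, and the log2 difference was 1.32 (SE 0.53, adjusted p = 0.143) in the warm against the cold regime and 1.20 (SE 0.54, adjusted p = 0.157) in the warm against the moderate regime. Val-UAC was too low to pass the filter, with 24, 9, 10 and 9 counts in warm pools, 4, 2, 2 and 2 in cold pools, and 3, 2, 5 and 4 in moderate pools, so that every warm pool exceeded every other pool. This did not hold over all 422 Val-UAC rows, where moderate pool 3 had 1.38 CPM and warm pools 2 to 4 had 0.842 to 1.08 CPM. Both kept Val-UAC rows reached a sum of 20 only with their warm counts. The other kept valine row, of Val-AAC, had its highest mean in moderate pools, at 0.225 CPM, beside 0.154 in warm and 0.0814 in cold pools. With that row added, valine passed the filter and was upregulated in the warm against the cold regime. The log2 fold change was 1.99 (SE 0.48, adjusted p = 0.0338 in edgeR). Summing by amino acid was chosen after seeing the data, and 2 of 13 such sums passed in that comparison (background 5.49%), valine and methionine. Stop-UCA had 15, 7, 7 and 8 counts in warm pools, 5, 0, 5 and 5 in cold pools, and 8, 6, 5 and 7 in moderate pools, and it was below the filter. With a raw sum of 20 as the filter its log2 difference was 1.27 (SE 0.56, adjusted p = 0.190) in the warm against the cold regime.

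Threonine tRNAs with anticodon AGU, in contrast, had their lowest mean in warm pools. Thr-AGU had 9, 2, 4 and 6 counts in warm pools, 20, 12, 10 and 13 in cold pools, and 5, 6, 14 and 8 in moderate pools. Warm and cold pools did not overlap, and the log2 difference was -1.37 (SE 0.43, adjusted p = 0.0730) in the warm against the cold regime and -0.85 (SE 0.45, adjusted p = 0.221) in the warm against the moderate regime. Over all 487 Thr-AGU rows, however, warm pool 1 had 2.01 CPM, above every cold pool, at 0.918 to 1.94 CPM. The warm against cold difference was then -0.45 (SE 0.41, adjusted p = 0.518 in edgeR). The other threonine anticodons did not share the profile of the kept Thr-AGU rows. Thr-UGU had 47, 41, 35 and 35 counts in warm pools, 20, 43, 52 and 31 in cold pools, and 14, 36, 83 and 27 in moderate pools, of which Trnat-ugu_18 contributed 72 counts in moderate pool 3. Its log2 difference in the warm against the cold regime was 0.07 (SE 0.46, adjusted p = 0.942), and it was below 0 without cold pool 1 or cold pool 4.

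Arg-UCU (arginine) and Phe-GAA (phenylalanine) were the 2 anticodon sums with an unadjusted p under 0.05 in edgeR between the cold and the moderate regime. Arg-UCU had 16, 8, 18 and 14 counts in warm pools, 5, 12, 8 and 5 in cold pools, and 16, 15, 14 and 11 in moderate pools. In CPM every cold pool was below every moderate pool, with a log2 difference of -1.09 (SE 0.39, adjusted p = 0.318) in the cold against the moderate regime and of 0.87 (SE 0.39, adjusted p = 0.185) in the warm against the cold regime. Its 2 rows differed from each other. Trnar-ucu_477 had 10, 4, 12 and 5 counts in warm pools, 4, 11, 8 and 5 in cold pools, and 16, 14, 12 and 9 in moderate pools, whereas Trnar-ucu_480 had 6, 4, 6 and 9 in warm pools, 1, 1, 0 and 0 in cold pools, and 0, 1, 2 and 2 in moderate pools. Phe-GAA had 36, 38, 28 and 32 counts in warm pools, 59, 40, 50 and 38 in cold pools, and 18, 21, 22 and 38 in moderate pools. Its log2 difference was 0.68 (SE 0.28, adjusted p = 0.370) in the cold against the moderate regime, with moderate pool 4 among the cold pools. With all 487 Phe-GAA rows summed, that difference was 0.29 (SE 0.26, adjusted p = 0.691 in edgeR).

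The kept rows of tyrosine tRNAs, which in animals are commonly spliced, had their lowest mean in warm pools. Tyr-GUA had 30, 27, 24 and 25 counts in warm pools, 35, 40, 35 and 24 in cold pools, and 45, 30, 38 and 27 in moderate pools. In CPM the warm pools, at 1.71 to 2.01, were all below the moderate pools, at 2.22 to 3.15, with a log2 difference of -0.61 (SE 0.24, adjusted p = 0.114). Over all 487 Tyr-GUA rows the lowest mean was in cold pools, at 3.70 CPM, beside 3.99 in warm and 4.61 in moderate pools. Warm and moderate pools then overlapped, with a log2 difference of -0.21 (SE 0.21, adjusted p = 0.516 in edgeR). Differences were smaller relative to their errors in the remaining sums over kept rows. For Ser-CGA, Gly-GCC, Gly-UCC, Leu-CAA, Lys-CUU and Ile-AAU the adjusted p was between 0.329 and 0.997 over the 3 comparisons. Leu-CAA, the lowest of these, had 1.22 to 1.61 CPM in warm pools, just above the 0.841 to 1.22 CPM in cold pools.

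**Figure D5:**
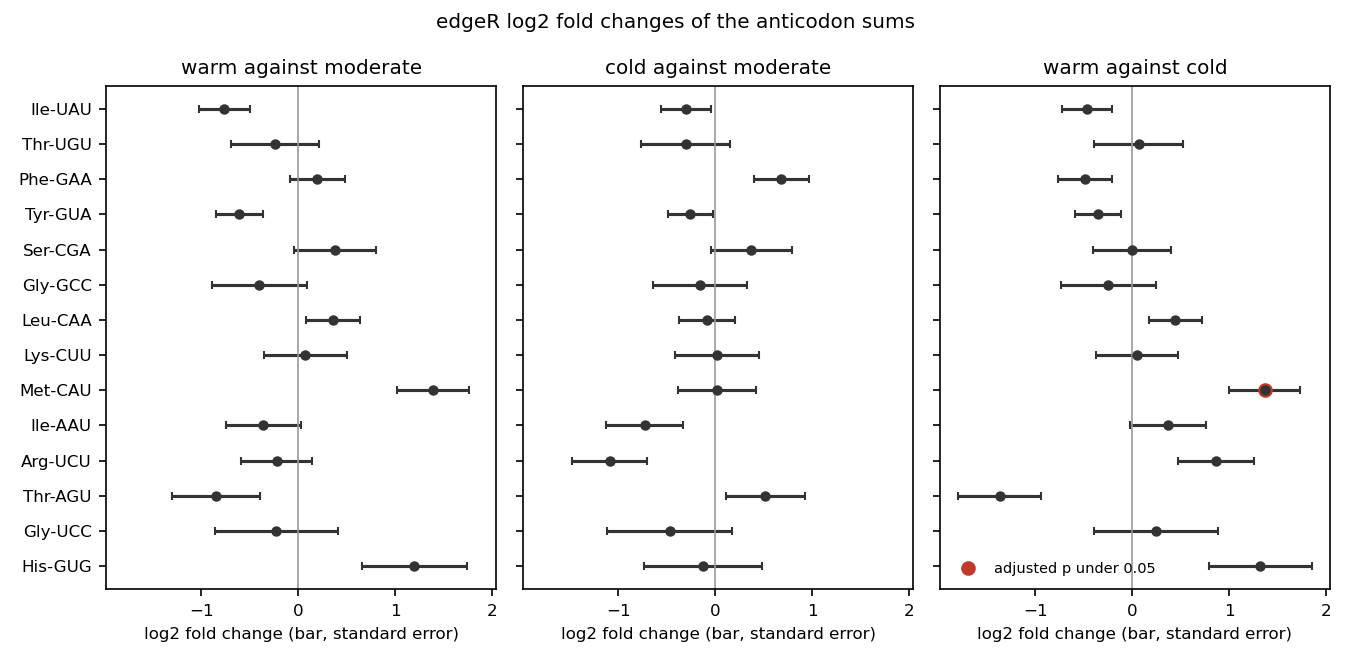
Log2 fold changes of the 14 tested anticodon sums in the 3 comparisons, with standard errors derived from the edgeR test statistic. The larger red point passed an adjusted p of 0.05. Met-CAU in the warm against the cold regime (1.37) is the red one, and the bars of most other sums come near or cross 0.

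Loosening the filter brought all 144 rows into the test and added 3 calls, all in the warm against the cold regime, where 4.1% of the 16312 rows tested passed. Trnar-ucu_480, with the counts given above, was upregulated in the warm regime with a log2 fold change of 3.35 (SE 0.76, adjusted p = 0.0313 in edgeR). Trnav-uac_2 had 22, 6, 5 and 6 counts in warm pools, 3, 1, 1 and 0 in cold pools, and 3, 2, 4 and 3 in moderate pools, and was upregulated in the warm regime with a log2 fold change of 2.84 (SE 0.68, adjusted p = 0.0371). Trnad-guc_484, an aspartate tRNA gene, had 0, 0, 0 and 1 counts in warm pools, 4, 3, 5 and 4 in cold pools, and 0, 2, 2 and 1 in moderate pools, and was downregulated in the warm regime with a log2 fold change of -3.45 (SE 0.89, adjusted p = 0.0472). These 3 rows had a total of 22 to 56 counts over the 12 pools, and their pools did not overlap between the warm and the cold regime. Each of them reached the minimum sum only with the counts of the regime in which it was highest. Their choice was therefore not separate from the difference tested. Trnar-ucu_480 rested on 25 counts in all warm pools and 2 in all cold pools, a ratio of 12.4 with a 95% exact binomial interval of 3.10 to 108. Trnad-guc_484 rested on 1 count in all warm pools and 16 in all cold pools, a ratio of 0.0622 with an interval of 0.00148 to 0.400. The intervals cover counting error only, and fitted fold changes of rows this low depend on the prior count. In the other 2 comparisons this filter gave 0 calls among the 144 rows in edgeR, where 0.987 and 0.0123% of all rows were called in the warm and in the cold against the moderate regime. An unadjusted p under 0.05 was reached by 21 and 10 of the 144 rows in these comparisons, beside 26.7 and 11.1% of all rows tested.

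Adding the tRNA rows below a sum of 20 to each name gave another picture, one chosen after seeing the data. Of 37 names that then passed the filter, 31 were fitted higher in warm than in cold pools, and the median log2 difference was 0.49, beside -0.01 over all features tested. A total of 4 names passed the test, all upregulated in the warm regime, where 5.52% of all features tested passed and 2.72% were upregulated. Cys-GCA, which had no row with a sum of 20, had 53, 35, 43 and 37 counts in warm pools, 13, 14, 12 and 13 in cold pools, and 14, 17, 25 and 39 in moderate pools, with a log2 fold change of 1.67 (SE 0.33, adjusted p = 0.0186) in the warm against the cold regime. Ala-AGC had 38, 29, 21 and 15 counts in warm pools, 5, 9, 9 and 6 in cold pools, and 9, 18, 19 and 15 in moderate pools, with a log2 fold change of 1.78 (SE 0.41, adjusted p = 0.0298). Met-CAU and Val-AAC followed with log2 fold changes of 1.39 (SE 0.35, adjusted p = 0.0402) and 1.31 (SE 0.35, adjusted p = 0.0449). The number of calls varied when single pools were left out. It was 0 without warm pool 1, cold pool 1 or cold pool 4, 1 (Cys-GCA) without warm pool 2, warm pool 3, cold pool 2 or cold pool 3, 2 without warm pool 4, 3 without moderate pool 1, 4 without moderate pool 3 and 5 without moderate pool 2 or moderate pool 4. The median log2 difference over the names tested was 0.31 without warm pool 1 and 0.43 to 0.61 without any other single pool, with 81.1 to 90.0% of the names higher in warm pools. Over these sums, 24 of 37 names were higher in the warm and 5 of 37 in the cold than in the moderate regime, with 0 calls in either comparison in edgeR (background 4.07 and 0.0142%). An unadjusted p under 0.05 was reached by 1 and 8 of the 37 names, beside 29.6 and 12.0% of all features tested. Median log2 differences were 0.25 and -0.33, beside -0.0036 and -0.010 over all features. Without single pools, 51.3 to 71.8% of names were higher in the warm and 5.13 to 28.2% in the cold than in the moderate regime. The lowest warm shares came without warm pool 1 or moderate pool 1, with median log2 differences of 0.0019 and 0.051. Without moderate pool 4, Cys-GCA was called in the warm against the moderate regime in edgeR.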

How the data were processed

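Per the methods, ribosomal RNA was removed before strand-specific library preparation, and the authors mapped reads with STAR and counted them per gene with featureCounts, and per the submitters' processing notes STAR was version 2.7.11a and Subread version 2.0.6. The deposited values were raw counts per gene, without normalization or filtering. How counting treated strand, overlapping genes and reads that match several copies is not given in the sources used here, so counts of near-identical tRNA copies are uncertain. All 12 sample columns were used and 0 left out. Of 37459 rows, 2 had no values. The members and lists were chosen with earlier results of these data known.

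Counts were tested with edgeR 4.0.16 in R 4.3.3 (TMM scaling, filterByExpr, quasi-likelihood test, all 12 samples, no covariate) over all rows at once, with Benjamini-Hochberg adjustment and a threshold of 0.05. The test gives no standard error, so each SE was derived as the absolute log2 fold change divided by the square root of the test statistic F. For sums, the kept tRNA rows were replaced by 1 row per anticodon. limma 3.58.1 (voom with sample weights), DESeq2 1.42.0, other scalings and filters, a block on the replicate number and leaving out each pool were alternatives. The edgeR, DESeq2 and voom fits of single rows were tested on simulated counts with known changes, and the other steps were not. Named were the 10 rows with the highest mean, the 3 tested rows with the largest rise and fall in each comparison, rows at the threshold, the 10 largest sums and the 2 sums with the largest rise and fall in each comparison. Other rows were named after their values were seen. Sequences and lists of pathway genes were not analysed here. Chi-square tests between pools of a regime gave 12.3 to 73.5 per degree of freedom over all rows, so no pool was counted as a repeat of another.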

Additional observations from a re-analysis of the deposited data

Results flagged for a closer look

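In 10 of 96 sets of 4 pools examined, 1 pool lay far from the others of its regime, by a gap above the 95% critical value of Dixon's test. Chance gives about 1 in 20 such sets. For the sum of all 144 tRNA rows, cold pool 2 had 62.2 CPM and the other cold pools 44.0 to 46.0. For Ile-UAU, warm pool 4 had 15.1 CPM (others 20.4 to 20.8) and cold pool 2 had 35.2 (others 22.3 to 24.2). For Gly-GCC, cold pool 3 had 0.535 CPM (others 1.29 to 1.39), and for Leu-CAA, warm pool 2 had 1.61 (others 1.22 to 1.27). Trnat-ugu_18 had 5.24 CPM in moderate pool 3 (others 0.329 to 0.717), Trnai-uau_202 had 1.30 in warm pool 3 (others 0.274 to 0.421) and Trnas-cga_346 had 0.740 in moderate pool 4 (others 0.291 to 0.350). Trnak-cuu_282, a lysine tRNA gene, was low in warm pool 1 at 0.469 CPM (others 0.982 to 1.08) and in cold pool 1 at 0.303 (others 0.866 to 0.933).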

How the results depend on the processing

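Neither Met-CAU nor LOC129971349 changed direction in the warm against the cold regime under any alternative. Over the 14 sums and 3 comparisons, 9 of 42 log2 differences changed sign when all tRNA rows of a name were summed, and 51 of 836 did under the other alternatives, none of them with an unadjusted p under 0.05 on either side. Of the differences printed above, Ile-UAU in the cold against the moderate regime became 0.36 with limma and voom, and Met-CAU in that comparison became -0.18 with limma and voom, -0.024 with a replicate block, -0.75 over all tRNA rows and -0.29 to 0.27 without single pools. Thr-UGU in the warm against the cold regime was -0.18 to 0.33 without single pools. Single tRNA rows called were 0 in each comparison, and became 1 in the warm against the moderate regime with limma and voom and 3 in the warm against the cold regime with a raw sum of 20 as the filter. Leaving out each pool gave 0 in all 3 comparisons. Anticodon sums called in the warm against the moderate regime were 0, but 2 with DESeq2, 4 with limma and voom and 0 to 3 without single pools (3 without moderate pool 4: Met-CAU, His-GUG and Tyr-GUA). In the cold against the moderate regime they were 0, but 1 with limma and voom. In the warm against the cold regime 1 sum was called, but 2 with a raw sum of 20 as the filter, 0 with at least 10 counts in every pool, 3 with limma and voom, 2 with only the regimes compared, 4 with all tRNA rows of a name, 2 by amino acid and 0 to 1 without single pools. With the raw-sum filter the called sums were Val-UAC and Asp-GUC, and Met-CAU had an adjusted p of 0.0523. The total over kept rows had a log2 ratio of -0.18 in the warm against the cold regime, and 0.22 over all tRNA rows. The replicate numbers come from separate pools and did not pair them: deviations of same-numbered pools correlated at -0.0851 to 0.116 over 12 pairs. A replicate block left Met-CAU as the 1 sum called in the warm against the cold regime (adjusted p = 0.0490). The causes of these changes were not tested. Of 504 values for single rows, sums and LOC129971349 under alternatives, 463 kept their direction and side of the threshold, 10 changed direction, 12 passed the threshold and 19 lost it. With a replicate block LOC129971349 had an adjusted p of 0.0512 in the warm against the cold regime. A planned total over rows that overlap no other gene was not run, because single rows could not be placed at a locus. Low counts limit single rows most: a count of 3 was 0.187 to 0.278 CPM, depending on the pool.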
